A study of Mus musculus with 3 samples.

Results

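Complement is a set of blood and tissue proteins that mark surfaces for removal, and 8 of its genes were followed here out of the 32285 genes in the count matrices: C1qa, C1qb, C1qc, C3, C4b, Serping1, Cd55 and Cd59a. They were chosen by name, as members of the complement system and its regulators. No measured value entered the rule, but the choice was made with earlier results of these data known. Their levels were read in microglia, endothelial, mural, glial and neuronal cells of the mouse retina at 3, 12 and 23 months of age. The libraries are called young, adult and old, values at the ages are always given in that order, and 1 library was made at each age from the pooled retinas of 2 C57BL/6JRj mice. Retinas were dissociated and passed over magnetic beads for CD31, a surface protein of endothelial cells that leukocytes can also carry, and neurons and glia remained in the suspension. No genetic change or treatment was applied. The age comparison therefore asks whether these genes differ between retinas of different age, and with 1 library per age no p-value was computed. Age and preparation cannot be told apart, and every interval below covers counting error only.

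The classical pathway starts with C1q, a protein built from 3 chains that binds to immune complexes, debris and synapses. C1q carries the proteases C1r and C1s, which cut C4 and C2 and lead to the cleavage of C3, the step on which all routes converge. Host cells hold the cascade back with the C1 inhibitor, which is the product of Serping1, with decay-accelerating factor (Cd55), which takes C3 convertases apart, and with Cd59a, which blocks the membrane attack complex. In the central nervous system C1q is known as a product of microglia, and C3 and C4 as products of reactive glia.

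The 3 genes of C1q lie side by side on chromosome 4 (C1qb 136880129 to 136886187, C1qc 136889804 to 136893065, C1qa 136895917 to 136898803), all on the minus strand of GRCm38 in GENCODE M21, within 18675 bases. C3 (chromosome 17, 57203970 to 57228136), C4b (chromosome 17, 34728380 to 34743882), Serping1 (chromosome 2, 84765387 to 84775444) and Cd55 (chromosome 1, 130439027 to 130462744) are also on the minus strand, and Cd59a (chromosome 2, 104095801 to 104115354) is on the plus strand. C4b, Cd59a and Cd55 each have a near copy close by, C4a, Cd59b and Cd55b. These were counted at 14, 122 and 0 UMIs (unique molecular identifiers, 1 per captured transcript), and reads that fit both copies may have been lost from either.

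Because the C1q chains were found in the same few cells, the RefSeq promoters of C1qb (GRCm38.p6, chr4:136886151-136886450, minus strand) and C1qc (chr4:136892865-136893164, minus strand) are shown. They run from 250 bases before to 50 bases after the RefSeq start, which differs from the GENCODE start given above. In C1qc the RefSeq start lies inside the gene as GENCODE places it. Capitals mark AGGAAGT or its reverse complement ACTTCCT, letters at the core of the sites that ETS factors such as the myeloid factor PU.1 bind. These letters were chosen after the sequences had been read.

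C1qb: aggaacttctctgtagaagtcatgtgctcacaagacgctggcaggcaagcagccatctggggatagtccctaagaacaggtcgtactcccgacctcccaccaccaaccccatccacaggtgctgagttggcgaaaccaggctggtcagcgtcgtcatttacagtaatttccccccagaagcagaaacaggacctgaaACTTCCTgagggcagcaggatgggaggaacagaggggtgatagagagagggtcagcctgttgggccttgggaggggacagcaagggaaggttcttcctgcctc
C1qc: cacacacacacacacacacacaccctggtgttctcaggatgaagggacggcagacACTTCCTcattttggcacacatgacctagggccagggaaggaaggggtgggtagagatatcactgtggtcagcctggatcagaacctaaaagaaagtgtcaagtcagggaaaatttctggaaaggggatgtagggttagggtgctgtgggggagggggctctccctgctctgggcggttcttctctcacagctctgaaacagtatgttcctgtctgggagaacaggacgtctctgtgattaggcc

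The match began 53 bases before the RefSeq start in C1qb (position -53) and at position -195 from the RefSeq start in C1qc. Of the 8 genes 5 had a promoter in the table, and the letters were absent from these windows of C3, Cd55 and Cd59a. Over all 32851 promoters of this length, 9.35% held them on either strand. C1qa, C4b and Serping1 were not matched.

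Of 2491 young, 3243 adult and 2751 old barcodes, 1705, 1957 and 1701 cells were kept, with 5964 to 6353 UMIs in the median cell. Levels are given as CPM, the UMIs of a gene in a class and library scaled to a common total of all UMIs of that class and library, with the exact 95% Poisson interval. Classes were named from marker genes that include none of the complement genes. Droplets with both endothelial and pericyte markers (312, 252 and 227 cells) were kept as a class of their own. Between libraries, 1 barcode was shared by the young and adult libraries and 3 by the adult and old ones, and 2 of these were kept in both.

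**Figure D1:**
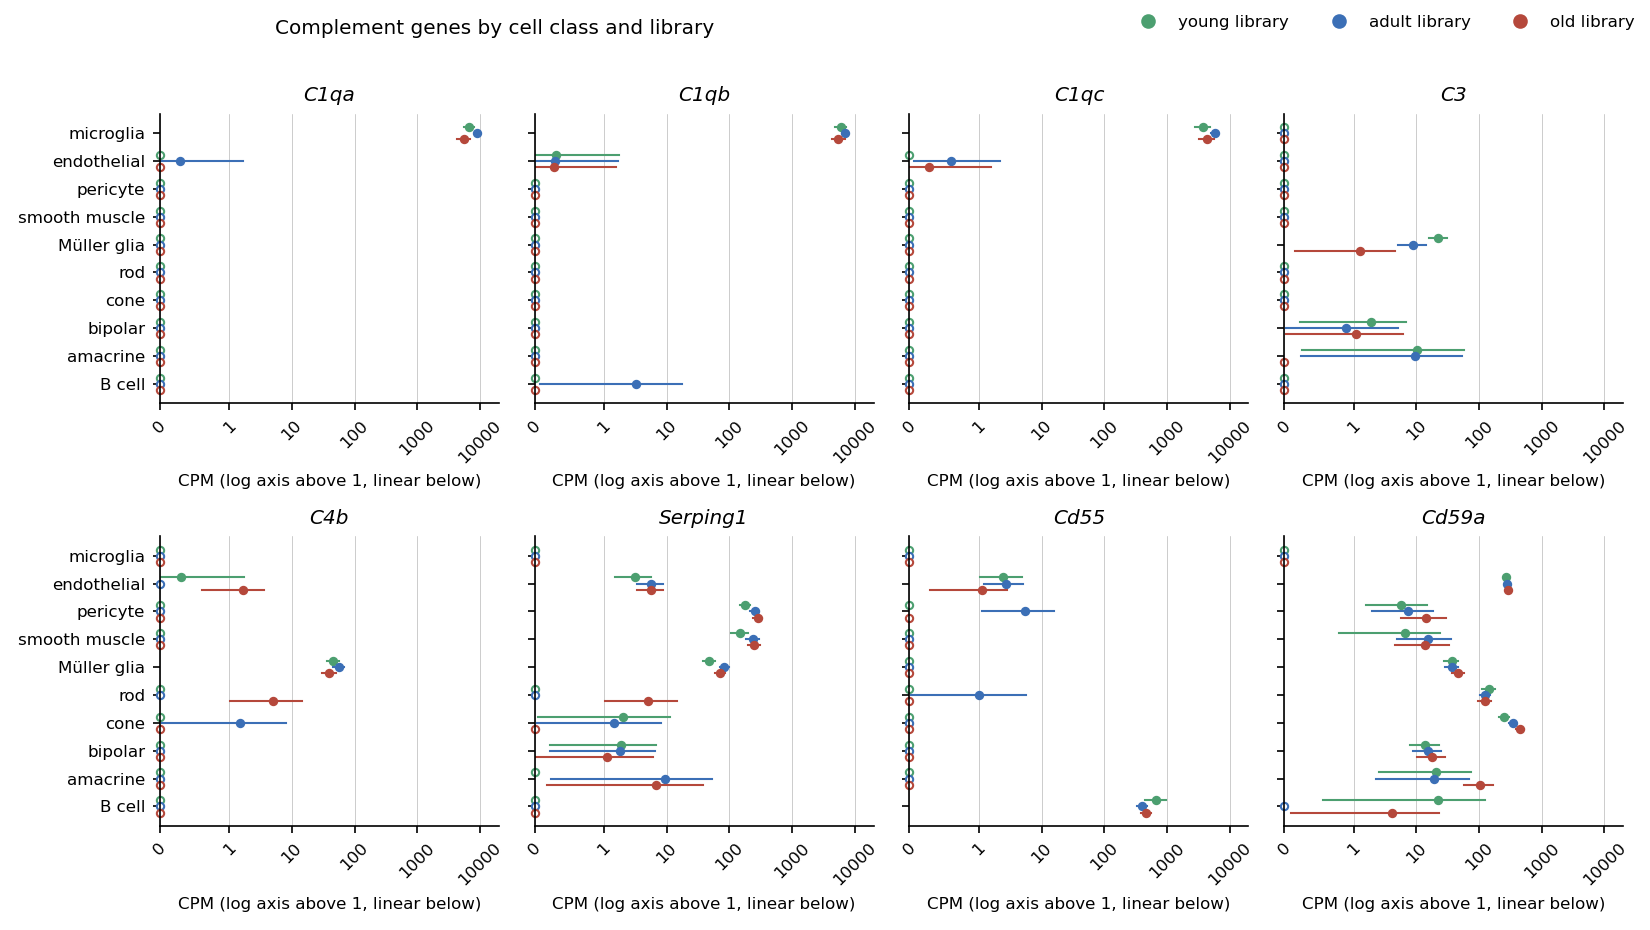
Level of each of the 8 genes (CPM on the horizontal axis, logarithmic above 1 and linear below) in 10 cell classes, with 1 point per library and bars for the exact 95% Poisson interval. Open points are libraries without a UMI. The C1q chains lie in microglia-like cells, C3 and C4b in Müller glia, Serping1 in mural cells and Müller glia, Cd55 in B cells, and Cd59a in endothelial cells and photoreceptors.

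Most C1q UMIs were found in microglia-like cells, of which only 10 were among the kept cells (2 young, 6 adult and 2 old). All 12 microglia markers were present in the group, macrophage markers such as Mrc1, Pf4 and F13a1 were at 0, and each of the 10 cells carried UMIs of all 3 chains. C1qa reached 6736, 9098 and 5550 CPM. C1qb stood at 6030, 7059 and 5476 CPM, and C1qc at 3721, 5784 and 4292 CPM. The adult library was the highest for each chain, with 6 cells behind its value against 2 in each of the others.

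Cell by cell, C1q made up 1.30 and 1.71% of the UMIs of the 2 young cells and 1.51 and 1.87% of those of the 2 old cells. The 6 adult cells ran from 1.42 to 2.91%, so the adult range covered the old cells and 1 of the young ones. Microglia fell short of the minimum of 10 cells per library, and no age ratio was formed. The deepest young cell had 92, 80 and 54 UMIs of C1qa, C1qb and C1qc, and the shallowest old cell, with 855 UMIs in all, had 10, 3 and 3. Markers of Müller glia stood at 5004 CPM in the young microglia-like cells, against 471 and 222 CPM in the adult and old ones, and their part in the young values was not tested.

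**Figure D2:**
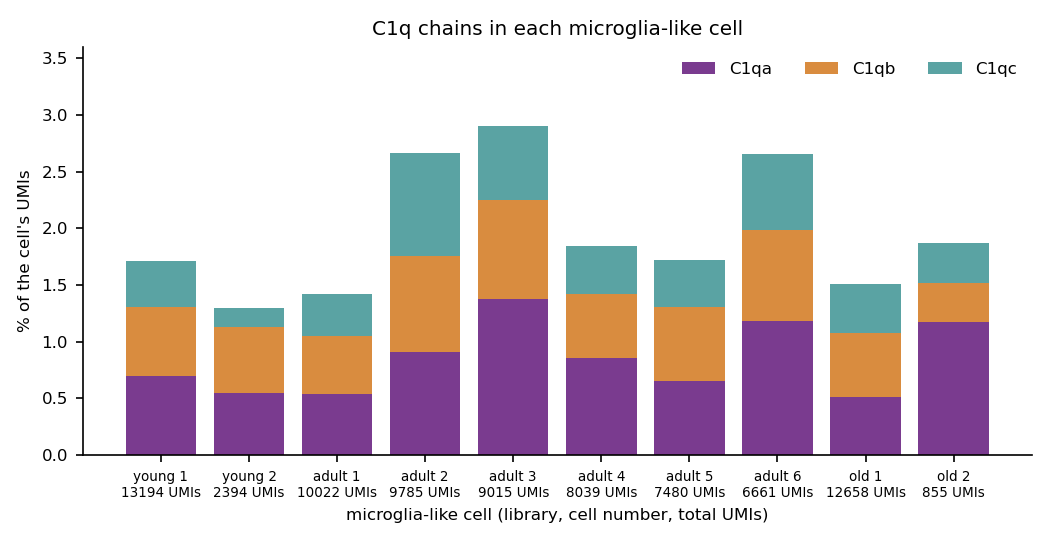
UMIs of C1qa, C1qb and C1qc as a percentage of all UMIs of each of the 10 microglia-like cells, stacked, with the library and total UMIs under each bar. All 3 chains are present in every cell, and the sum runs from 1.30 to 2.91%.

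The split of C1q UMIs over the chains kept 1 order in each library. C1qa took 40.9, 41.5 and 36.2% in young, adult and old microglia-like cells, C1qb 36.6, 32.2 and 35.7%, and C1qc 22.6, 26.4 and 28.0%. These are shares of 3' tag counts and not of protein. Of 1809 C1q UMIs in the kept cells, 1583 (87.5%) lay in the 10 cells. A single adult droplet held a further 185, and with 12 microglia, 8 endothelial and 8 pericyte marker genes it met the lists of several cell types. The split over the chains (40.5, 31.9 and 27.6%) was close to that of the microglia-like cells. A young droplet with endothelial, erythroid and 5 microglia markers held 22, and only 19 C1q UMIs were found in other kept cells. Barcodes outside the limits held a further 11, 14 and 1 UMIs of C1qa, 15, 14 and 0 of C1qb and 8, 14 and 0 of C1qc.

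No C1q UMI was seen in any of 402 pericytes, 113 smooth muscle cells, 605 Müller glia, 721 rods, 245 cones, 449 bipolar cells or 51 amacrine cells. Over these 2586 cells the count of 0 allows a share of cells with a UMI of up to 0.116%. In endothelial cells 5 of 1285 carried C1q, with 7 UMIs in all and no cell with all 3 chains. C3, C4b, Serping1, Cd55 and Cd59a were all at 0 in the microglia-like cells, which at this cell number limits each only to 236.6, 72.3 and 273 CPM (upper Poisson bounds).

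C3, the protein on which the pathways converge, was scarce. The kept cells held 71 UMIs, of which 56 were in Müller glia, the radial glia of the retina. These were 37 young, 17 adult and 2 old UMIs (22.4, 8.75 and 1.27 CPM). The old and young libraries together were under the minimum of 50 UMIs, so no old to young ratio was formed. The adult to young ratio was 0.392 (0.207 to 0.713). Only 5 young, 7 adult and 2 old Müller cells carried C3, and a single young cell accounted for 25 of the 37 young UMIs. Without the cell of most C3 in each library, the levels were 7.31, 5.70 and 0.641 CPM, so the young value dropped by more than the others and the order over the ages was the same. Over all barcodes the C3 counts were 47, 30 and 24, since 18 of the 24 old UMIs, against 7 and 5 at the younger ages, were in barcodes outside the limits or called doublets. Endothelial cells, pericytes, smooth muscle cells, rods and cones had no C3 UMI, and bipolar and amacrine cells had 4 and 2. The other 9 UMIs lay in unnamed leukocyte droplets, 6 adult and 3 old (58.0 and 45.4 CPM, from 7 and 8 droplets), above Müller glia in those libraries. The name only marks the cluster they came from. A sub-cluster of 11 of these droplets met 9 of 9 endothelial, 8 of 8 pericyte and 3 of 12 microglia markers, and the other, of 5, met 4 of 4 granulocyte markers.

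C4b was counted mainly in Müller glia. They held 244 of its 271 UMIs in kept cells, at 45.3 CPM (35.6 to 56.8), 55.6 (45.6 to 67.1) and 38.8 (29.7 to 49.9). Rods stood at 0, 0 and 4.95 CPM, endothelial cells at 0.305, 0 and 1.66 CPM, and 7 adult pigment epithelium cells at 149.8 CPM (40.8 to 384), above adult Müller glia but from 4 UMIs. C4b was at 0 in pericytes, smooth muscle, bipolar and amacrine cells. After each cell had been thinned to 2000 UMIs, 4.68, 7.58 and 7.14% of Müller cells carried C4b, against 0% of rods. The old to young ratio was 0.857 (0.601 to 1.22), within counting error of 1, and the old to adult ratio was 0.699 (0.502 to 0.965). The direction was not stable: the old to young ratio became 1.48 when each cell was classed by its own markers and 1.88 (1.14 to 3.15) when no limits were set on the cells, an alternative added after the data had been seen. In the old library 82 of 158 C4b UMIs lay in barcodes left out by the limits or as doublet calls.

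Müller glia were not uniform for these genes. At a finer resolution, with the complement genes kept out of the clustering, they fell into 4 groups, and 87 cells (26 young, 35 adult and 26 old) formed a group led by Lcn2, Crhbp, Fbln1, Penk and Serpina3n, with A2m also among the leading genes. Its median cell had 13540 UMIs, against 2113 to 10171 in the other groups. Lcn2 and Serpina3n are known as genes that glia switch on after injury. All 7 Müller markers were present in these cells, as in the other groups. The astrocyte markers Gfap, Agt and Aldh1l1 were present too, while Pax2 and S100b were not reached in enough cells. The largest group also reached Agt and Aldh1l1, together with S100b. Gfap in the young library was higher in a group of 74 cells (513 CPM, in 3 cells) than here (316 CPM). The group of 87 cells is therefore called by its leading genes. It held 55 of the 56 Müller UMIs of C3 and 61.9% of those of C4b.

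In that group C4b stood at 146 CPM (109 to 192), 147 (114 to 186) and 96.5 (66.0 to 136). In the largest group, of 329 cells, C4b stood at 13.3, 20.9 and 14.3 CPM, and the intervals of these 2 groups did not overlap in any library. The group of 115 cells stood at 31.3, 78.7 (41.9 to 134) and 78.1 CPM (42.7 to 131), and its interval overlapped that of the Lcn2 group in the adult and old libraries. The group of 74 cells stood at 53.4 (17.4 to 124.7), 13.8 and 12.8 CPM (0.324 to 71.3), from 5, 1 and 1 UMIs. Its interval overlapped that of the Lcn2 group in the young and old libraries. Serping1 showed the same order of the Lcn2 and the largest group, at 123, 201 and 136 CPM against 25.6, 50.7 and 54.0 CPM. The intervals of these 2 groups were apart in each library. In the group of 115 cells Serping1 stood at 50.1 (21.6 to 98.7), 18.2 and 61.4 CPM (30.6 to 109.8). Its intervals overlapped those of the Lcn2 group in the young and old libraries. The group of 74 cells had 0, 2 and 2 Serping1 UMIs. The share of all genes with intervals apart between these groups was not computed. For Cd59a the values were 48.8, 43.2 and 72.3 CPM in the Lcn2 group and 33.2, 36.2 and 43.8 CPM in the largest, in the same order but with overlapping intervals. The group of 74 cells stood at 53.4, 27.6 and 51.2 CPM of Cd59a, above the Lcn2 group in the young library. C3 in the Lcn2 group was at 103 CPM (72.4 to 143), 36.7 (21.4 to 58.8) and 6.03 (0.730 to 21.8), and 32.8, 24.5 and 3.12 CPM without the cell of most C3 in each library. Lcn2 itself stood at 1203, 108 and 57.3 CPM in these cells and Gfap at 316, 56.2 and 57.3 CPM, so the young library was also the highest for these genes, carried by 7 of the 26 young cells each.

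**Figure D3:**
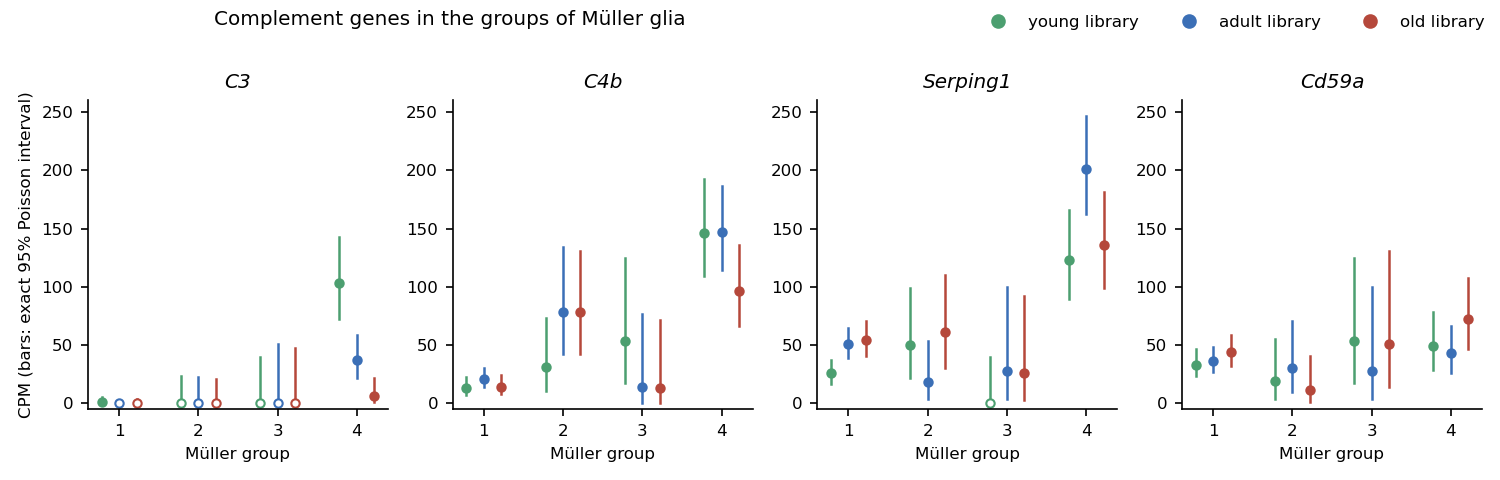
CPM of C3, C4b, Serping1 and Cd59a in the 4 groups of Müller glia, with 1 point per library and bars for the exact 95% Poisson interval (open points: no UMI). Group 4 is the group led by Lcn2, where C4b stands at 96.5 to 147 CPM. It stands at 13.3 to 20.9 CPM in group 1, 31.3 to 78.7 CPM in group 2 and 12.8 to 53.4 CPM in group 3.

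Serping1, the C1 inhibitor that blocks the proteases of C1, was a gene of mural cells, the pericytes and smooth muscle cells that wrap retinal vessels. Pericytes carried 178 CPM (148 to 212), 252 (212 to 297) and 280.6 (236 to 331). Smooth muscle cells carried 146 (107 to 196), 234 (185 to 293) and 248 CPM (199 to 305), which overlapped the pericyte range. Droplets with endothelial and pericyte markers, at 71.8, 104 and 112 CPM, held 48.7% of the 2290 Serping1 UMIs in kept cells. Müller glia had 47.1, 82.8 and 70.6 CPM, below pericytes and smooth muscle cells in every library. Endothelial cells held only 3.05, 5.64 and 5.54 CPM, and rods 0, 0 and 4.95 CPM.

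In pericytes, smooth muscle cells, Müller glia and endothelial cells the young library was the lowest. The old to young ratio was 1.58 (1.23 to 2.02) in pericytes, 1.69 (1.17 to 2.48) in smooth muscle cells and 1.56 (1.35 to 1.82) in droplets with endothelial and pericyte markers. In Müller glia it was 1.5 after rounding (1.11 to 2.03) and just short of the fold of 1.5. It was past the fold in 5 of 8 alternatives, at 1.69 with stricter cell limits, 1.64 with cells classed by their own markers, 1.63 after thinning, 1.65 without limits on the cells and 1.52 without the cell of most Serping1 in each library, and at 1.46 to 1.48 in the others. The adult library was already higher, at 1.42, 1.60, 1.45 and 1.76 times the young level, and the old to adult ratios of 1.11, 1.06, 1.08 and 0.853 all had intervals that held 1. A Serping1 UMI was seen in 71 of 169, 70 of 130 and 56 of 103 pericytes. After thinning to 2000 UMIs the share was 26.5, 34.3 and 38.4% in pericytes, 26.3, 21.1 and 35.1% in smooth muscle cells, where the adult library was the lowest, and 8.19, 9.09 and 13.1% in Müller glia, against 0, 0 and 1.41% of rods.

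Within the mural cells, other markers moved too. Smooth muscle markers in pericytes stood at 2553, 3961 and 3862 CPM, and pericyte markers in smooth muscle cells at 9971, 9164 and 5157 CPM. Summing pericytes and smooth muscle cells, an alternative added after the data had been seen, gave a ratio of 1.59 (1.29 to 1.95). Müller markers in pericytes were at 100.5, 136 and 179.7 CPM, and their part in the pericyte values was not tested. The pericyte ratio dropped under the fold with median-of-ratios scaling (1.48) and without cells that carried 2 or more markers of another class (1.27, with 15 old and 43 young UMIs). The smooth muscle ratio dropped under it when each cell was classed by its own markers (1.44) or when no limits were set on the cells (1.34, 1 to 1.79). Within Müller glia, the ratio was 2.11 (1.30 to 3.48) in the largest group and 1.10 (0.707 to 1.71) in the Lcn2 group.

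Cd55, the membrane protein that breaks up convertases, was counted mainly in B cells. They held 273 of its 350 UMIs in kept cells, at 667 CPM (450 to 953), 402 (335 to 478) and 471 (389 to 565). A Cd55 UMI was seen in 7 of 10, 51 of 77 and 42 of 57 B cells. T or NK cells followed with 1, 12 and 8 UMIs. Endothelial cells had 2.44, 2.67 and 1.11 CPM, and smooth muscle cells, Müller glia, cones, bipolar and amacrine cells had none. The old to young ratio in B cells was 0.706 (0.469 to 1.09), and the adult to young ratio 0.602 (0.402 to 0.929). Endothelial markers stood at 734 CPM in the 10 young B cells and at 117 and 126 CPM in the others, and their part was not tested. The old to young ratio was 1.43 when cells were classed by their own markers and 1.70 (1.18 to 2.48) without limits on the cells, but 0.658 with doublet calls kept and 0.594 after thinning, so its direction was not stable.

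Cd59a, the inhibitor of the membrane attack complex, had 6704 UMIs in kept cells, and 42.3% of them lay in endothelial cells and 33.3% in droplets with endothelial and pericyte markers. Cones carried 252 CPM (210 to 301), 345 (302 to 392) and 448 (391 to 511). Endothelial cells carried 267 (249.9 to 286), 275 (258 to 293) and 286 CPM (269 to 304), a range inside that of cones. Droplets with endothelial and pericyte markers stood at 170, 177 and 226 CPM, and rods at 142, 125 and 122 CPM, below all of these in every library. Müller glia had 36.2, 37.0 and 46.5 CPM, bipolar cells 13.9, 15.2 and 17.5 CPM and pericytes 5.74, 7.25 and 14.1 CPM. Amacrine cells had 2, 2 and 15 UMIs.

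The endothelial old to young ratio of 1.07 (0.976 to 1.17) was the closest to 1 of the 9 formed with single classes. In the droplets with endothelial and pericyte markers it was 1.33 (1.2 to 1.47). Among thinned endothelial cells 40.6, 42.7 and 38.9% carried a Cd59a UMI, against 1.32, 3.70 and 2.33% of pericytes thinned to the same 2000 UMIs. The larger endothelial cluster stood at 267, 274 and 295 CPM and the smaller at 268, 282 and 254 CPM, with overlapping intervals in every library. In cones the old to young ratio was 1.78 (1.42 to 2.23), and the adult library lay in between. Endothelial markers were nearly absent from cones (48.8, 29.2 and 42.2 CPM, under 0.5% of their endothelial level), and rod markers in cones were at 5605, 9267 and 5891 CPM. In rods the old to young ratio was 0.861 (0.611 to 1.22) and in Müller glia 1.28 (0.899 to 1.84). The cone ratio dropped under the fold after thinning (1.31) and without cells that carried 2 or more markers of another class (1.44), and it was 3.00 with stricter cell limits, from 19 young UMIs. Median-of-ratios scaling shifts every cone ratio by -0.11 on the log2 scale.

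**Figure D4:**
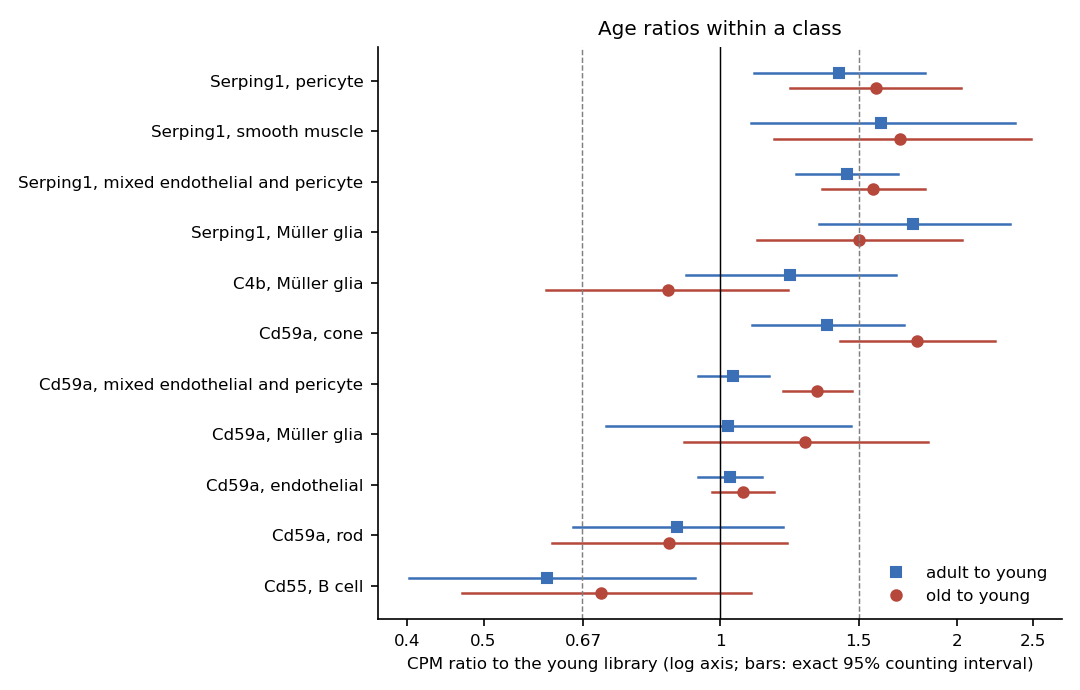
CPM ratio of the adult and the old library to the young one (logarithmic axis) for each gene and class with an old to young ratio. Bars are the exact 95% interval of counting error, and dashed lines stand at 1.5-fold. The adult to young ratio of C3 in Müller glia (0.392) is not shown. The old to young ratio of Serping1 is 1.5 to 1.69 in the classes shown, and that of Cd59a runs from 0.861 in rods and 1.07 in endothelial cells to 1.78 in cones.

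With at least 50 UMIs over the young and old library, 9 values in 7 classes could be formed, of which 3 were at least 1.5-fold higher in the old library (Serping1 in pericytes and smooth muscle cells, Cd59a in cones), 0 were lower and 6 were neither. Among all genes with as many UMIs, 7.57% were higher and 4.47% lower in pericytes, 9.06 and 4.91% in smooth muscle cells, and 5.67 and 4.33% in cones. The shares were 5.2 and 3.49% in Müller glia, where 0 of 3 genes passed, and 4.9 and 3.34% in endothelial cells, where 0 of 1 did. In rods they were 5.5 and 5.23% and in B cells 16.8 and 7.19%, with 0 of 1 past the fold in each. With 1 library per age these ratios cannot be set against the spread between animals.

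The rest of the pathway was read from a list of 60 complement genes, of which 47 had a UMI in the kept cells and 22 had at least 100. Terminal components, which form the attack complex and are mostly made in liver, were nearly missing, with 3 of 7 detected and none at 100 UMIs. Of central components 7 of 7 were detected, of receptors 9 of 10, of membrane regulators 8 of 9, of soluble inhibitors 9 of 11, and of initiators and their proteases 11 of 16. In pericytes 6 genes of the list had enough UMIs, and the old to young ratio was past the fold for Serping1 (higher) and for Cr1l, the rodent convertase inhibitor also called Crry (lower, 79.0, 50.8 and 46.4 CPM, ratio 0.588, 0.345 to 0.973). The median log2 ratio of the 6 was 0.01, beside 0.07 over all genes tested in pericytes. In endothelial cells Cr1l stood at 138, 139 and 133 CPM.

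In endothelial cells 7 genes of the list had enough UMIs. Clu, the inhibitor of terminal complex insertion, was at 33.0, 49.3 and 95.6 CPM, an old to young ratio of 2.90 (2.33 to 3.64), and Lrp1, a scavenger receptor, was lower in the old library (13.4, 14.0 and 5.54 CPM, ratio 0.413, 0.231 to 0.715). Clu is an abundant gene of Müller glia (3498, 3672 and 3892 CPM), and Müller markers in endothelial cells stood at 3.94, 4.65 and 5.66% of their Müller level. The part of Müller RNA in the endothelial Clu values was not tested. Pericyte markers in endothelial cells stood at 1917, 1897 and 1122 CPM, lowest in the old library as Lrp1 was, and their part in the Lrp1 values was not tested. Cd93, a receptor once described as a C1q receptor, stood at 387, 319 and 313 CPM in endothelial cells and at 133, 110 and 111 CPM in smooth muscle cells. Outside these classes Clu was also past the fold in cones (132, 218 and 299.6 CPM, ratio 2.27, 1.68 to 3.08), rods (50.03, 44.3 and 102 CPM, ratio 2.05, 1.26 to 3.43) and bipolar cells (22.2, 41.1 and 35.1 CPM, ratio 1.58, 0.900 to 2.80). Müller markers stood at 425, 255 and 673 CPM in rods, 50.9, 153 and 82.4 CPM in cones and 61.2, 77.8 and 90.9 CPM in bipolar cells, and their part was not tested. The median log2 ratio of the 7 was -0.05, beside 0.02 over all genes tested there.

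Pericytes also carried the protease gene C1s1 (158, 150.5 and 208 CPM) and large amounts of Vtn, the gene of vitronectin (11101, 9382 and 11124 CPM), which stood at 104, 338 and 111 CPM in smooth muscle cells. Lrp1 stood at 470, 466 and 390 CPM in pericytes, 179, 201 and 173 CPM in smooth muscle cells and 140, 154 and 167 CPM in Müller glia. In Müller glia 1 of 7 genes of the list was past the fold, Vtn, at 17.5, 54.5 and 35.0 CPM with a ratio of 2.0 (1.25 to 3.25). Rod markers in Müller glia moved alongside, at 372, 1108 and 853 CPM, and rods carry 1591, 1663 and 1401 CPM of Vtn. The part of rod RNA in this value was not tested. The median of the 7 Müller ratios was 0.36 on the log2 scale, beside 0.03 over all genes. Microglia-like cells carried both chains of complement receptor 3, Itgam (642, 451 and 666 CPM) and Itgb2 (257, 255 and 370 CPM), as well as Lrp1 (449, 235 and 222 CPM). Clu was counted there only in the young library (21 UMIs), the one in which Müller markers were high, and their part in this count was not tested.

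**Figure D5:**
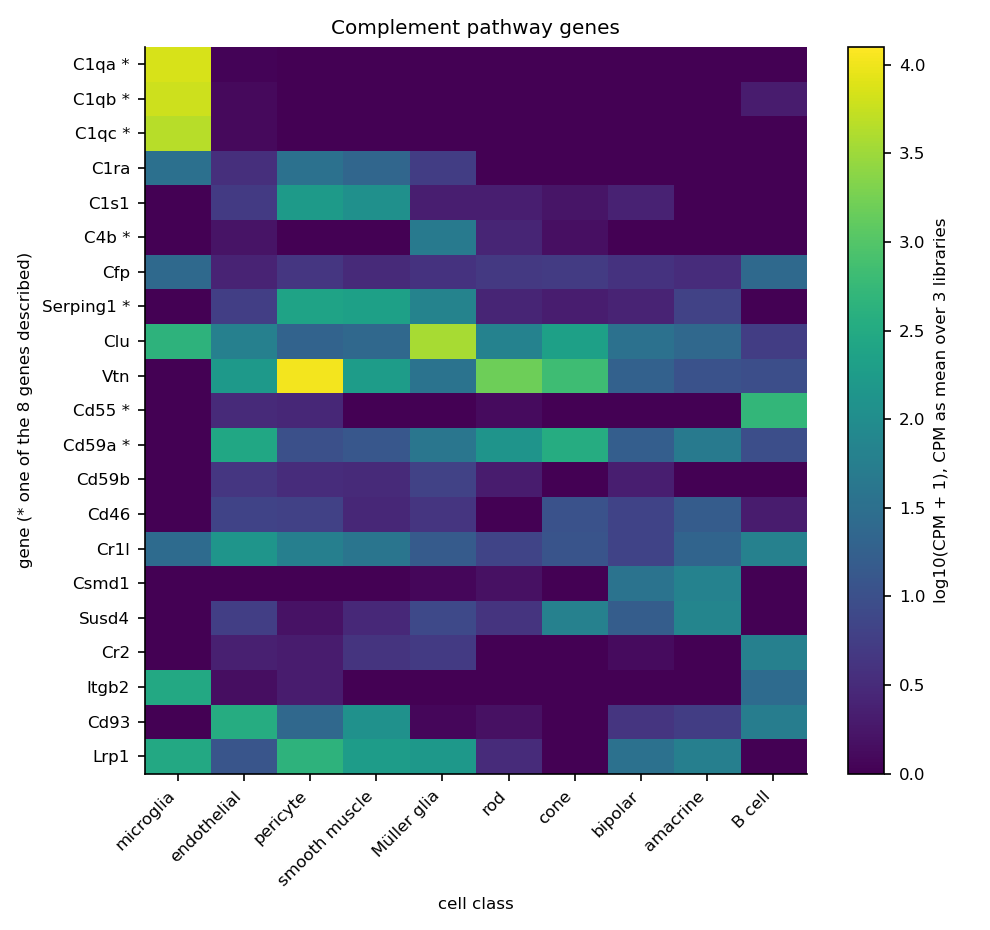
Level of all but 1 of the 22 complement genes with at least 100 UMIs in 10 cell classes, as log10(CPM + 1) of the mean over the 3 libraries (colour). The C1q chains stand out in microglia, Vtn in pericytes and photoreceptors, Clu in Müller glia and Cd55 in B cells.

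The genes whose pattern was most like that of a member were found by Pearson correlation of log2(CPM + 10) over 27 sums, 9 classes in each of 3 libraries, among 12222 genes with at least 100 UMIs. The sums of a class share cells of the same kind, so r describes mainly in which class a gene lies. For C4b these were Qrfpr, Itgb8 and Bves (r = 0.99 each), for Serping1 they were Gprc5c, Fads3 and Zic1 (0.98, 0.98 and 0.98), and for Cd55 they were Apbb1ip, Bank1 and Gm26740 (1.00 each). Cd59a, which lies in both endothelial cells and photoreceptors, had no such close partner, and its best were Slc16a1, Myrip and Prom1 (0.84, 0.84 and 0.82). The C1q chains and C3 had too few UMIs in these classes to be compared.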

How the data were processed

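Single-cell RNA-seq (10x Genomics, 3' chemistry v3.1) was performed on CD31-enriched retinal suspensions, with 1 library per age from 2 mice. The values deposited by the authors are unnormalized UMI counts for every gene in every barcode, made with Cell Ranger 6.1.2 on mm10 according to the submitters' processing notes. No cell annotation by the authors was used.

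Cells with 500 to 6000 genes and 1 to 20% mitochondrial UMIs were kept, and Scrublet (scanpy 1.11.5) doublets were left out (0.467, 0.861 and 0.7% of cells), a weak call. Libraries held 16577026, 19977238 and 17021820 UMIs. Cells were integrated and clustered in Seurat 5.3.0 (R 4.3.3; 2000 features, 30 principal components, resolution 0.5, finer groups at 1.5), with all 60 complement genes kept out of the features. A class name needed 3 markers detected in at least 20% of cells at 25% or more of the highest level. Clusters in which 50% or more of the markers of several classes were met were treated as mixed. Pericyte with smooth muscle and Müller glia with astrocyte were excepted, and took the name with more markers among the leading genes. The smooth muscle cluster met 5 of 8 pericyte and 4 of 5 smooth muscle markers. The larger Müller cluster met 7 of 7 Müller and 3 of 5 astrocyte markers. The 52 cells with microglia and T cell markers were split into 4 sub-clusters. Thresholds for names were chosen once the clusters were known.

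UMIs were summed per class and library. Levels carry exact Poisson, shares exact Clopper-Pearson and ratios exact conditional 95% intervals (scipy 1.17.1). Intervals and limits at a count of 0 (3 counts) cover counting error only. A ratio was formed in classes with at least 10 cells per library and at least 50 UMIs over the young and old library, and called past the fold at 1.5. The ratio step was tested on simulated data. Named genes were the 8 members, the other listed genes past the fold in endothelial cells, pericytes, Müller glia or microglia or above 100 CPM in every library of a class, and the 3 genes most like each member. The members and lists were chosen with earlier results of these data known. Promoters are from RefSeq and positions from GENCODE M21, both on GRCm38. Results for 2 genes, 1 of them of the complement list, are not reported here.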

Additional observations from a re-analysis of the deposited data

Results flagged for a closer look

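For both C3 and C4b, over 50% of the UMIs of the old library lay in barcodes that the comparisons above did not use. Of 158 C4b UMIs in the old library 82 (51.9%) were in left-out barcodes, against 4 of 82 in the young and 43 of 160 in the adult library. The old ones were spread over 24 barcodes, with at most 17 in a single one. Of them 41 were in barcodes with more than 6000 genes, 20 in barcodes above and 10 in barcodes below the mitochondrial limits, and 10 in doublet calls, and a barcode can miss more than 1 limit. Of 24 C3 UMIs in the old library 18 were in left-out barcodes, 13 of them in a single droplet called a doublet, against 7 of 47 in the young and 5 of 30 in the adult library.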

How the results depend on the processing

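Of 77 alternatives run for the 9 age ratios, 66 stayed within the 95% counting interval of the reported value and 11 did not, and no ratio past the fold changed direction. With each cell classed by its own markers the old to young ratio was 1.48 for C4b in Müller glia and 1.43 for Cd55 in B cells, and without limits on the cells it was 1.88 and 1.70. Thinning to 2000 UMIs per cell gave 1.92 for C4b and 1.92 for Cd59a in Müller glia, 1.31 for Cd59a in cones and 0.957 for Cd59a in endothelial cells. The stricter cell limits gave 3.00 for Cd59a in cones. Cd59a in endothelial cells was 1.21 with the droplets of endothelial and pericyte markers included and 1.18 after the UMIs per rod cell had been subtracted. The cause of these shifts was not tested.

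The number of the 8 genes past the fold fell from 1 to 0 in pericytes, smooth muscle cells and cones at a fold of 2. It fell to 0 in pericytes with median-of-ratios scaling, in pericytes and cones without cells carrying other markers, in cones after thinning, and in smooth muscle cells after thinning, where under 50 UMIs were left. With at least 20 UMIs it rose from 0 to 1 in endothelial cells (Serping1) and in Müller glia (C3), and after thinning from 0 to 1 in rods and B cells. The other 35 of 47 counts were unchanged, but some of them could not change. In Müller glia, after thinning and without cells carrying other markers, no gene kept 50 UMIs, so the count had to stay 0. The thinned Müller ratios themselves were 1.92 for C4b and Cd59a and 1.63 for Serping1. Of 16 alternatives for mean levels 15 stayed within 1 SD over the libraries, and C1qc in microglia-like cells went from 4599 to 3083 CPM after thinning. Ratio alternatives that left under 20 UMIs gave no value, and neither did ratio and count alternatives that left under 10 young or old cells. No such limit was set for mean levels, and the thinned microglia-like values rest on 2, 6 and 1 cells. Rod subtraction for Cd59a in Müller glia gave no value either. No paired analysis was possible because each age has 1 library. With 1 library per age nothing here measures the spread between animals, and 10 microglia-like cells set the limit for C1q.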

Other observations

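Some genes of the complement list were chosen here after their values in endothelial cells were seen. Cfb, C1ra and C4b had more UMIs in the old than in the young library, and C1s1 and Cfp had fewer. The share of all genes with so few UMIs that differed as much was not computed. Cfb, the protease of the alternative pathway, had 2 young, 1 adult and 17 old UMIs in 447, 432 and 406 endothelial cells (0.61, 0.297 and 4.71 CPM), and the old UMIs were spread over 13 cells with at most 2 in a cell. C1ra, a protease of C1, had 4, 6 and 17 UMIs (1.22, 1.78 and 4.71 CPM), also over 13 old cells. C1s1 had 18, 12 and 11 UMIs (5.49, 3.56 and 3.05 CPM) and Cfp, the gene of properdin, had 8, 4 and 4 (2.44, 1.19 and 1.11 CPM). C4b in endothelial cells had 1, 0 and 6 UMIs, the old ones in 6 cells. All lie under the minimum of 50 UMIs, and Müller markers in endothelial cells stood at 721, 869 and 1061 CPM.

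Among neurons, Csmd1, a large membrane regulator, stood at 32.4, 28.6 and 43.8 CPM in bipolar cells and at 103, 47.1 and 47.8 CPM in amacrine cells, the latter from 10, 5 and 7 UMIs, and had no UMI in endothelial cells or pericytes. Susd4, another membrane regulator, stood at 59.0, 74.6 and 56.3 CPM in cones and at 2.75, 4.16 and 7.48 CPM in endothelial cells. B cells carried the complement receptor Cr2 (44.5, 60.2 and 77.2 CPM, from 2, 19 and 19 UMIs). C3ar1, the receptor of the C3a fragment, was counted in microglia-like cells at 3, 6 and 1 UMIs and at no more than 1 UMI per library in Müller glia, bipolar cells, endothelial cells and pericytes.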
